A study of Mus musculus with 8 samples.

Results

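Macrophage genes were examined in the bulk RNAseq libraries of muscle pericytes and SMCs. The list held 9 genes, Csf1r, Mrc1, Cd163, Cd68, Emr1, Mertk, Lyz2, Fcgr1 and Cd14, each matched by its symbol to a single row among the 37979 genes with deposited values. All 9 had values above 0 in all 8 libraries and were tested among the 27414 genes with a value above 0 in at least 1 library.

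The study used 18 mice of both sexes, aged 3 to 4 months, and how many of them gave sorted cells is not given in the sources used here. The cells were isolated from hindlimb muscle of mice with the genotype Ai14+/−;SM22α-Cre+. In these mice Cre, driven by the SM22α promoter, permanently switches on the red protein tdTomato, so a cell that once used this promoter stays labelled. Pericytes were sorted as PDGFRβ+tdTomato− cells and SMCs as PDGFRβ+tdTomato+ cells, both carrying the same alleles and no treatment, after cells stained for CD31 or CD45 and DAPI-bright cells had been gated out. There were 4 libraries of each, each from about 60000 cells pooled over several sorts. The labels give all libraries the same batch value, but whether they were processed on separate dates is not given in the sources used here. Values are FPKM, fragment numbers scaled for transcript length and sequencing depth, so that levels can be compared between genes. The number of reads behind a value is unknown. The summed FPKM was 1190435 in pericyte replicate 2 and 656405 to 782014 in the other libraries.

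Macrophages are tissue phagocytes of the myeloid lineage. Their survival depends on the receptor encoded by Csf1r, which binds the growth factors CSF1 and IL-34. Resident macrophages of skeletal muscle lie in the connective tissue and along blood vessels, clear dying cells and debris, and take part in repair after injury. CD45, the antigen gated out in the sort, is carried by macrophages as by other leukocytes.

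The sorted populations were first checked against markers of their own and of other cell types. Pericyte and mural markers such as Pdgfrb and Rgs5 were measured in every library, and of 8 such genes Rgs5 alone passed the test, higher in SMCs (limma q = 0.0240). None of 8 smooth muscle markers passed the test (limma), although their median difference was 1.31 log2 units, SMCs minus pericytes. They summed to 607 to 1907 FPKM in pericytes and 1792 to 5824 FPKM in SMCs, and Acta2 alone had 330 to 1258 FPKM and 1158 to 3291 FPKM. Ptprc, which encodes CD45, had 202, 80.6, 230.3 and 189 FPKM in pericyte replicates 1 to 4 and 4.34, 9.15, 7.26 and 11.9 FPKM in SMC replicates 1 to 4. All 6 pan-leukocyte, all 6 T cell and all 6 B cell markers were higher in pericytes, as were 4 of 7 dendritic cell and 2 of 6 mast cell markers, although the gate had removed CD45-stained cells from both groups. In SMCs, 4 of 7 endothelial markers and 5 of 6 fibroblast markers were higher. The fibroblast gene Dcn was the exception, listed at 0 in every SMC library and at 509 to 1165 FPKM in pericytes. Another fibroblast gene, Lum, had 1131 to 1971 FPKM in SMCs. Whether the 0 of Dcn stands for absent RNA or for a value that was not computed is not given in the sources used here. The fibroblast sums below include this 0. In such bulk samples, fewer cells of a type and less RNA per cell cannot be told apart.

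**Figure D1:**
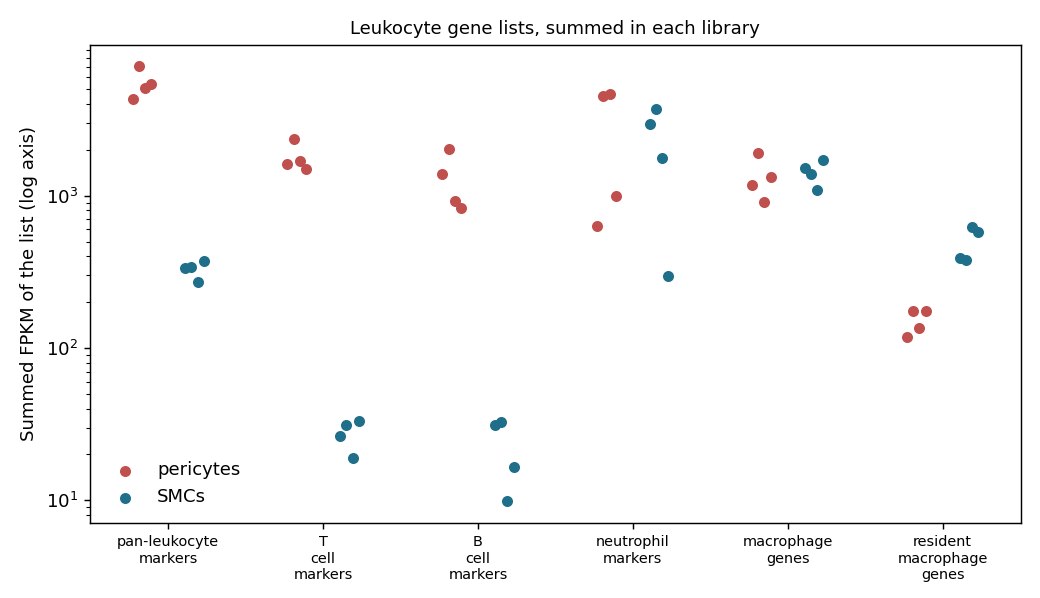
Summed FPKM of 6 leukocyte gene lists in each library (log axis), with 4 points for pericytes and 4 for SMCs in each list. The summed T cell markers lay at 1496 to 2356 in pericytes and 19.1 to 33.1 in SMCs, whereas the summed macrophage genes overlapped between the groups and the resident macrophage genes were higher in every SMC library.

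By limma at a q value below 0.05, 5 of the 9 were higher in SMCs (Mrc1, Mertk, Cd163, Fcgr1 and Emr1), none was higher in pericytes, and Csf1r, Cd14, Cd68 and Lyz2 did not pass. Among all 27414 genes tested, 11.2% were higher in SMCs and 10.6% were higher in pericytes by the same rule. The genes tested include ones near 0, and 13612 had a mean of 1 FPKM or more, whereas all 9 members were above 0 in every library. With only genes at 1 FPKM or more in 4 libraries, 3040 were higher in SMCs and 2947 in pericytes, against 3060 and 2917. The shares among expressed genes are therefore larger than those given here. With a difference of more than 2 log2 units also required, Mrc1 remained (1 of 9, where 2.66% of all genes were higher in SMCs and 3.24% were higher in pericytes by this rule). With a library left out, the count higher in SMCs by q alone was 2 to 4. The count past 2 log2 units was 0 without SMC replicate 4. Endothelial markers summed to 62.8 to 112.9 FPKM in pericytes and 208 to 768 FPKM in SMCs. Fibroblast markers summed to 798 to 1642 and 3257 to 4486 FPKM, and pan-leukocyte markers to 4321 to 7057 and 273 to 371 FPKM. The part of these cell types in the differences of the members was not tested. The median difference over the 9 genes was 0.90 on the log2(FPKM + 1) scale, SMCs minus pericytes, and the median over all genes tested was -0.02. For 5 genes (Mrc1, Mertk, Cd163, Fcgr1 and Cd14) every SMC library lay above every pericyte library, as was the case for 12.5% of all genes tested. This share, too, is over genes that include ones near 0.

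**Figure D2:**
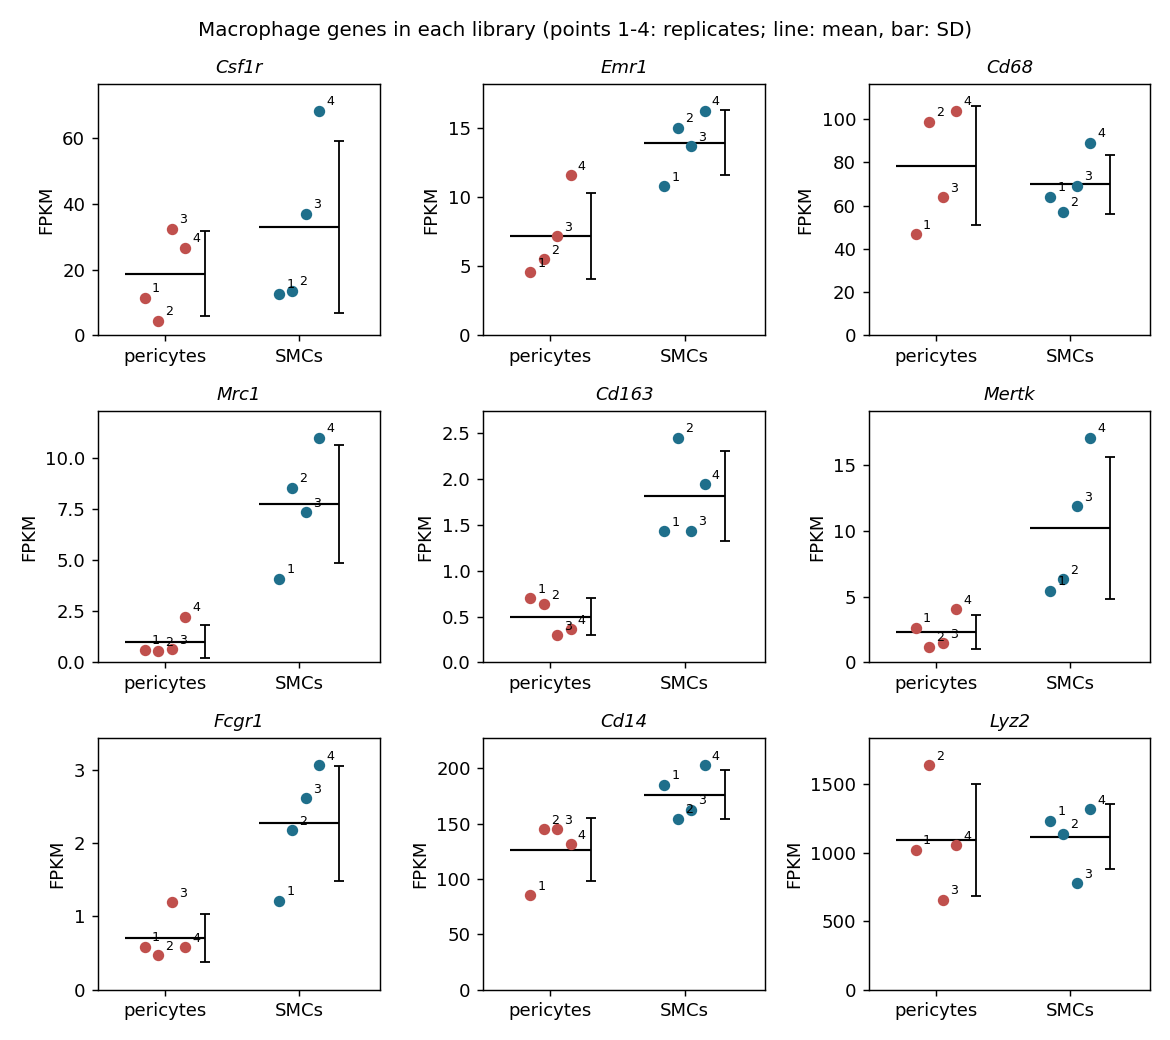
FPKM of the 9 macrophage genes, with a panel for each gene and a linear axis from 0. Points are libraries numbered by replicate, lines are group means and bars are SD (n = 4). Mrc1, Cd163 and Mertk are separated between the groups, while Cd68 and Lyz2 overlap.

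The order of the mean levels was the same in both groups. Lyz2 was the most abundant member, with 1093 ± 407 FPKM in pericytes and 1116 ± 237 FPKM in SMCs (mean ± SD, n = 4). It was followed by Cd14 (126 ± 28.3 and 176 ± 22.1 FPKM), Cd68 (78.4 ± 27.5 and 69.9 ± 13.7 FPKM) and Csf1r (18.7 ± 12.98 and 32.9 ± 26.2 FPKM). Emr1 (7.20 ± 3.11 and 13.9 ± 2.34 FPKM), Mertk (2.33 ± 1.31 and 10.2 ± 5.40 FPKM) and Mrc1 (1.02 ± 0.820 and 7.76 ± 2.87 FPKM) came next. Fcgr1 (0.707 ± 0.332 and 2.27 ± 0.791 FPKM) and Cd163 (0.500 ± 0.199 and 1.81 ± 0.486 FPKM) were the lowest. In pericytes, the ranges of Cd14 and Cd68, of Csf1r and Emr1, and of neighbours among the 4 lowest genes overlapped. In SMCs, neighbours in the order from Cd68 to Mrc1, and Fcgr1 and Cd163, overlapped. The 2 least abundant genes, and Mrc1 in pericytes, lay near the pseudocount, where the log2 scale understates a fold change.

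Mrc1 encodes the mannose receptor CD206, an endocytic receptor of tissue macrophages that also occurs on some endothelial cells. Its span in NCBI Build 37, the build of all gene positions given here, is chromosome 2, 14151041 to 14253684 (plus strand). Mrc1 had 0.631, 0.561, 0.647 and 2.25 FPKM in pericyte replicates 1 to 4 and 4.10, 8.56, 7.37 and 11.0 FPKM in SMC replicates 1 to 4. The lowest SMC library was above the highest pericyte library, and replicate 4 was the highest in both groups. The difference was 2.12 log2 units (standard error 0.33, limma q = 0.00390), and the mean FPKM was 7.59 times as high in SMCs. It was 2.95 log2 units with a pseudocount of 0.1 in place of 1.

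Cd163 encodes the scavenger receptor for complexes of haemoglobin and haptoglobin, and lies at chromosome 6, 124254669 to 124280545 (plus strand). Its values were 0.703, 0.636, 0.297 and 0.365 FPKM in pericyte replicates 1 to 4 and 1.43, 2.45, 1.44 and 1.94 FPKM in SMC replicates 1 to 4. The groups did not overlap, although all values were low. The difference was 0.90 log2 units (standard error 0.15, limma q = 0.00466), and the ratio of the mean FPKM was 3.63. With a pseudocount of 0.1 in place of 1, the difference was 1.70 log2 units.

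Mertk encodes a receptor tyrosine kinase by which macrophages recognise and engulf dying cells. It lies at chromosome 2, 128524692 to 128628630 (plus strand). Mertk had 2.63, 1.19, 1.44 and 4.04 FPKM in pericyte replicates 1 to 4 and 5.45, 6.34, 11.9 and 17.1 FPKM in SMC replicates 1 to 4. Replicate 4 was the highest in both groups, and the groups did not overlap. The difference was 1.70 log2 units (standard error 0.41, limma q = 0.0228). It lost the call without pericyte replicate 3 (limma q = 0.0632) and without SMC replicate 3 (limma q = 0.0633).

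Fcgr1 encodes CD64, the high-affinity receptor for immunoglobulin G, and lies at chromosome 3, 96086832 to 96098179 (minus strand). It had 0.584, 0.470, 1.198 and 0.577 FPKM in pericyte replicates 1 to 4 and 1.22, 2.18, 2.62 and 3.07 FPKM in SMC replicates 1 to 4. Pericyte replicate 3 and SMC replicate 1 almost met. The difference was 0.92 log2 units (standard error 0.21, limma q = 0.0205), and the call was kept in 3 of 8 fits that each left out a library, in which limma q ranged from 0.00669 to 0.0579. The fits that lost it left out pericyte replicate 1 or 4, or SMC replicate 2, 3 or 4. With a pseudocount of 0.1 the difference was 1.56 log2 units.

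Emr1, named Adgre1 in current annotation, encodes the adhesion receptor F4/80, a classical marker of mouse macrophages. It lies at chromosome 17, 57498109 to 57622952 (plus strand). Emr1 had 4.55, 5.51, 7.16 and 11.6 FPKM in pericyte replicates 1 to 4 and 10.8, 15.001, 13.7 and 16.2 FPKM in SMC replicates 1 to 4. Pericyte replicate 4 was above SMC replicate 1. The difference was 0.92 log2 units (standard error 0.26, limma q = 0.0437), near the threshold, and only the fit without pericyte replicate 4 kept the call among 8 that left out a library (limma q = 0.00755 there and 0.0508 to 0.108 in the others).

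Csf1r lies at chromosome 18, 61265226 to 61291803 (plus strand). It had 11.4, 4.49, 32.4 and 26.6 FPKM in pericyte replicates 1 to 4 and 12.6, 13.5, 36.99 and 68.3 FPKM in SMC replicates 1 to 4. In both groups replicates 3 and 4 were above replicates 1 and 2, and the groups overlapped. The difference was 0.76 log2 units with a 95% interval from -1.0 to 2.53 (limma q = 0.576), which includes 0 and differences larger than that of Mrc1. With a library left out it was 0.25 (without pericyte replicate 2) to 1.123 (without pericyte replicate 3), and 0.31 without SMC replicate 4. A fit with a term separating replicates 1 and 2 from 3 and 4 gave a limma q of 0.116. Its annotated span shares 871 bases with Hmgxb3 on the opposite strand, which had 2.74 to 12.8 FPKM in pericytes and 2.33 to 6.46 FPKM in SMCs. Whether reads were counted by strand is not given in the sources used here, so reads of both genes cannot be told apart in that stretch.

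Cd14 encodes a co-receptor for bacterial lipopolysaccharide and lies at chromosome 18, 36884728 to 36886390 (minus strand). It had 85.0, 144.8, 144.7 and 131 FPKM in pericyte replicates 1 to 4 and 185, 154, 162 and 203 FPKM in SMC replicates 1 to 4. The groups did not overlap, but the difference of 0.50 log2 units (95% interval 0.05 to 0.94, limma q = 0.114) did not pass the adjusted threshold. It passed after conversion to TPM, which gives each library the same total (0.74 log2 units, limma q = 0.0258), but this scaling also moved the median of the 13612 genes with higher levels (a mean of 1 FPKM or more) by 0.21 log2 units in the same direction. Without pericyte replicate 1 the difference of Cd14 was 0.32 log2 units.

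Cd68 encodes a glycoprotein of late endosomes and lysosomes that is abundant in macrophages, and lies at chromosome 11, 69477715 to 69479655 (minus strand). Its values were 46.9, 98.9, 64.0 and 104.0 FPKM in pericyte replicates 1 to 4 and 64.0, 57.2, 69.1 and 89.2 FPKM in SMC replicates 1 to 4. The pericyte libraries spanned the whole range of the SMC libraries. The difference was -0.11 log2 units (95% interval -0.76 to 0.54, limma q = 0.833), and its sign changed with TPM scaling.

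Lyz2 encodes the lysozyme of macrophages and neutrophils. It lies at chromosome 10, 116714390 to 116719377 (minus strand), beside its paralogue Lyz1. Lyz2 had 1022, 1640, 656 and 1054 FPKM in pericyte replicates 1 to 4 and 1233, 1138, 778 and 1317 FPKM in SMC replicates 1 to 4. Replicate 3 was the lowest in both groups. The difference was 0.08 log2 units (95% interval -0.61 to 0.77, limma q = 0.892), and it was 0.46 with quantile scaling (limma q = 0.171) and 0.32 with TPM scaling (limma q = 0.407). Lyz2 made up 72.3% to 87.0% of the summed FPKM of the 9 genes in pericytes and 71.8% to 81.4% in SMCs, so the sum follows this gene. Neutrophil markers, which share the expression of Lyz2, summed to 635 to 4664 FPKM in pericytes and 299 to 3702 FPKM in SMCs, and none of 10 passed the test (limma). Their part in the level of Lyz2 was not tested.

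Lyz1 and Lyz2 have coding sequences of 447 bases each that differ at 22 positions (95.1% identity), with a longest identical run of 118 bases. How reads that match both genes were counted is not given in the sources used here. Coding bases 185 to 274, which lie in the second coding exon at chr10:116728112-116728201 for Lyz1 and chr10:116717724-116717813 for Lyz2 (NCBI Build 37, minus strand, annotation GENCODE M1), show how closely they match. Capitals mark the 4 bases of this stretch at which the genes differ.
Lyz1: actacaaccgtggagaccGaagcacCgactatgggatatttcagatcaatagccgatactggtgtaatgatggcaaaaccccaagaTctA
Lyz2: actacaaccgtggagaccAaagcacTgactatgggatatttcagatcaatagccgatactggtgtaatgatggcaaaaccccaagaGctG
Lyz1 had 1.74 to 10.8 FPKM in pericytes and 4.12 to 32.3 FPKM in SMCs, which was 0.265% to 1.01% and 0.526% to 2.56% of both genes together. With Lyz1 and Lyz2 summed, an alternative chosen after seeing the data, the difference was 0.10 log2 units (limma q = 0.866).

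**Figure D3:**
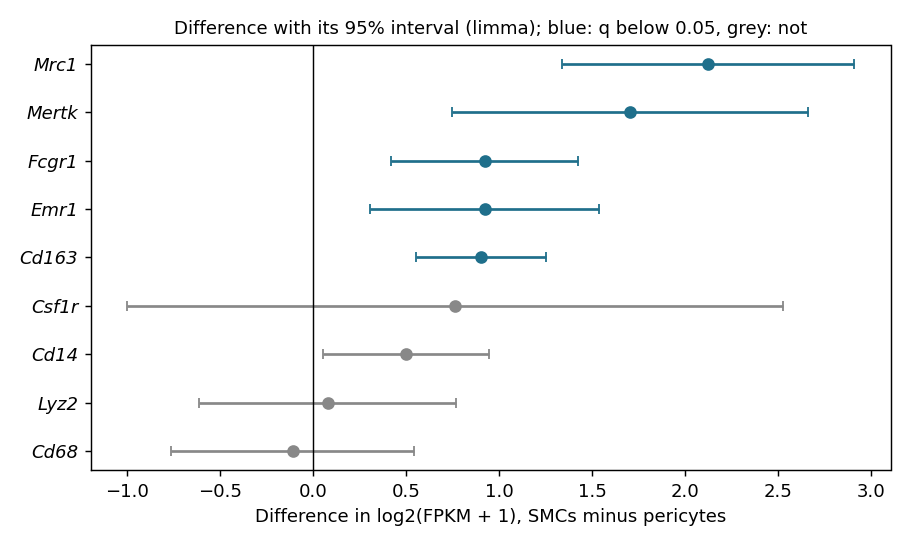
Difference in log2(FPKM + 1), SMCs minus pericytes, for the 9 macrophage genes with 95% intervals from limma. Blue genes had a q value below 0.05 and grey genes did not. Mrc1 and Mertk have the largest differences, 2.12 and 1.70, and the interval of Csf1r is the widest, from -1.0 to 2.53.

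The members were also set against the RNA of CD45. The ratio of Csf1r to Ptprc was 0.0557 to 0.141 in pericytes and 1.48 to 5.74 in SMCs, and that of Cd68 to Ptprc was 0.232 to 1.23 and 6.25 to 14.8. Csf1r and Cd68 overlapped between the groups, and the mean of Csf1r was 1.76 times as high in SMCs. The mean of Ptprc was 21.5 times as high in pericytes. On the log2 scale the differences, SMCs minus pericytes, were 0.76 for Csf1r, -0.11 for Cd68 and -4.24 for Ptprc. Most of the separation of these ratios therefore lay in Ptprc. What lies behind the level of Ptprc was not tested.

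Partners of the members were counted from lists of related genes. Csf1, a ligand of CSF1R, was higher in SMCs, with 2.31 to 5.06 FPKM in pericytes and 14.8 to 40.1 FPKM in SMCs (2.63 log2 units, limma q = 0.00277). The other ligand, Il34, was also higher in SMCs, with 5.28 to 9.39 FPKM in pericytes and 22.5 to 45.8 FPKM in SMCs (limma q = 0.00292). In the same list of 8 genes, Csf2 and the progenitor and dendritic cell receptor gene Flt3 were higher in pericytes, and the other 4 did not pass. The count higher in pericytes was 5 of 8 with a block for the replicate number (limma). It was 6 of 8 with a term separating replicates 1 and 2 from 3 and 4 (limma), so it depends on the model.

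Among the 14 efferocytosis genes, which serve the uptake of dying cells, 7 were higher in SMCs and 1 (Elmo1) was higher in pericytes. The count higher in SMCs was 4 without pericyte replicate 1 or SMC replicate 3, and none was higher in pericytes with TPM scaling or in 6 of 8 fits that left out a library (all but those without pericyte replicate 2 or SMC replicate 4). The bridging ligands of MERTK were in the first set. Gas6 had 11.0 to 40.5 FPKM in pericytes and 90.8 to 288 FPKM in SMCs (2.85 log2 units, limma q = 0.00888). Pros1 had 14.1 to 26.2 FPKM in pericytes and 124 to 160 FPKM in SMCs (2.82 log2 units, limma q = 8.5e-05). Of the kinases related to MERTK, Axl was higher in SMCs (2.60 log2 units, limma q = 0.0191), and Tyro3 did not pass (0.25 log2 units, limma q = 0.755). Of 10 scavenger receptors, 7 were higher in SMCs and none in pericytes, with Marco at 0 to 0.862 FPKM in pericytes and 6.70 to 35.7 FPKM in SMCs (limma q = 0.00224). Colec12 and Cd36, also in this list, were higher by 3.50 and 2.92 log2 units, and both are used by stromal or endothelial cells as well.

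Of 18 genes of resident macrophages, 9 were higher in SMCs, 1 (Clec10a) was higher in pericytes and 8 did not pass. The call of Clec10a was lost with TPM scaling and in 6 of 8 fits with a library left out (all but those without pericyte replicate 1 or SMC replicate 4). Folr2, the folate receptor of resident macrophages, had 0.335 to 2.32 FPKM in pericytes and 14.0 to 28.1 FPKM in SMCs (3.46 log2 units, limma q = 5.2e-04). Cbr2 and Cd209f were higher in SMCs by 3.38 and 3.11 log2 units. The complement genes C1qa, C1qb and C1qc, abundant in tissue macrophages, were each higher in every SMC library, with 199 to 261 FPKM of C1qb in SMCs and 12.98 to 68.0 FPKM in pericytes (limma q = 0.00326). Monocyte genes were divided, with 4 of 11 higher in pericytes and 3 higher in SMCs. Ly6c2, a monocyte gene that lymphocytes also use, had 643 to 1881 FPKM in pericytes and 13.2 to 42.9 FPKM in SMCs (limma q = 5.8e-04). Ccr2, the receptor for the chemokine CCL2, was also higher in pericytes (limma q = 0.00344), whereas Fn1 and Ace were higher in SMCs.

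Most Fc receptor signalling genes were lower in SMCs, where Fcgr1 was higher. Of 9 such genes, 6 were higher in pericytes and 1 (Fcgrt) was higher in SMCs. With TPM scaling or without pericyte replicate 2, the count higher in SMCs was 2. Fcer1g, the signalling chain that CD64 needs, had 246 to 601 FPKM in pericytes and 144 to 188 FPKM in SMCs (-1.24 log2 units, SMCs minus pericytes, limma q = 0.0126). The inhibitory receptor gene Fcgr2b, which B cells also use, was higher in pericytes (limma q = 0.0211), while Fcgr3 and Fcgr4 did not pass (limma q = 0.113 and 0.900). The kinase genes Syk, Lyn and Fgr were higher in pericytes. NADPH oxidase and phagocyte integrin genes had 9 of 11 higher in pericytes and none higher in SMCs. Among them, Tyrobp, a signalling adaptor of myeloid and natural killer cells, differed by -1.99 log2 units (limma q = 0.00124), and Itgb2, shared by most leukocytes, by -3.53. Itgam, the CD11b chain of monocytes and neutrophils, did not pass (limma q = 0.321).

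In the lipopolysaccharide list, the partners of CD14 were higher in SMCs, where Cd14 itself did not pass. Tlr4, the signalling receptor, had 1.61 to 2.62 FPKM in pericytes and 5.97 to 7.67 FPKM in SMCs (1.41 log2 units, limma q = 3.5e-04). Ly96, its co-receptor MD-2, and Lbp, the transfer protein, were higher by 1.38 and 2.49 log2 units. Over the list, 5 of 11 genes were higher in SMCs and 1 (Cd180) was higher in pericytes, and the median difference was -0.25 log2 units, towards pericytes. The count higher in SMCs was 3 without pericyte replicate 1 or 4 or SMC replicate 2, 3 or 4. The count higher in pericytes was 2 without pericyte replicate 1 or 2. Phagosome and lysosome genes had 7 of 15 higher in SMCs, led by Ctsk at 202 to 340 FPKM against 9.08 to 30.5 FPKM, and 1 higher in pericytes, Ctss. Macrophage activation genes had 5 of 12 higher in SMCs, including Ccl2, Il6, Slc40a1 and Hmox1, and none higher in pericytes. Fibroblast markers were also higher in SMCs (5 of 6), and their part in these counts was not tested.

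**Figure D4:**
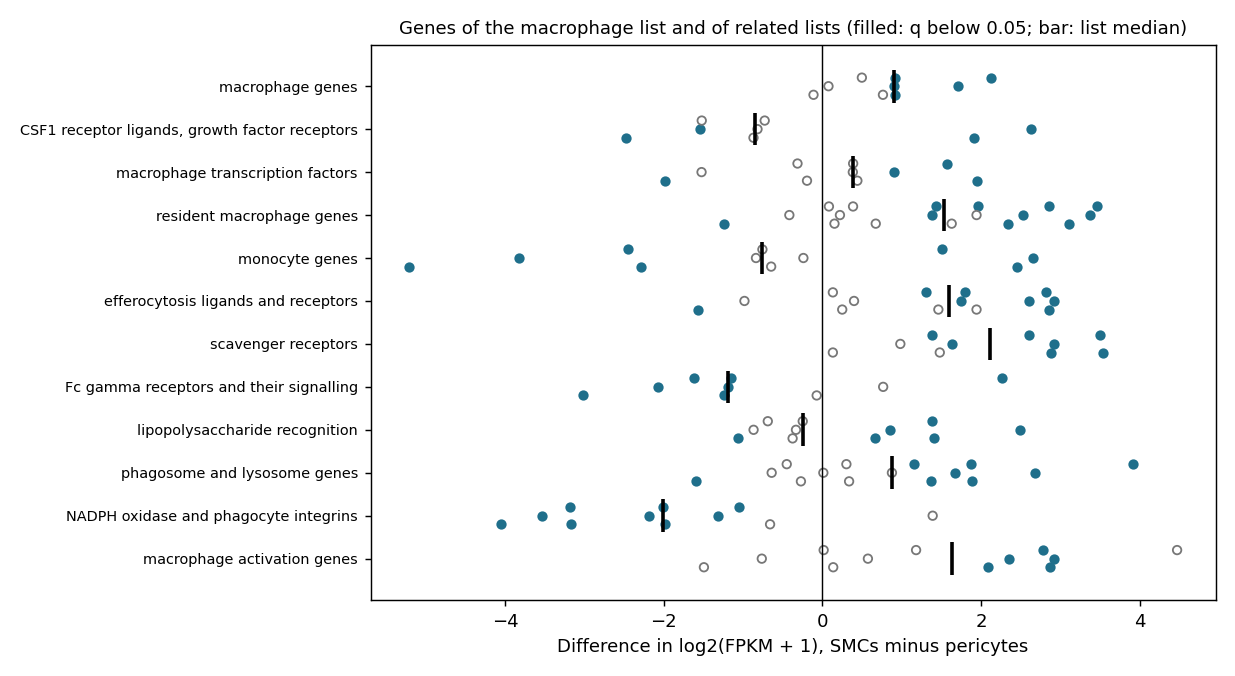
Difference in log2(FPKM + 1), SMCs minus pericytes, for each gene of the macrophage list and of 11 related lists. Filled points had a limma q value below 0.05, open points did not, and bars are list medians, which run from -2.0 for the NADPH oxidase and phagocyte integrin genes to 2.12 for the scavenger receptors.

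Transcription factor genes of the lineage were also mixed. Spi1, listed as Sfpi1, encodes PU.1, on which macrophages and B cells depend, and had 34.6 to 108 FPKM in pericytes and 11.3 to 27.4 FPKM in SMCs (-1.98 log2 units, limma q = 0.0130). Nr1h3, which encodes the sterol-sensing receptor LXRα, went the other way (1.95 log2 units, limma q = 0.0289), as did Mitf (0.90 log2 units, limma q = 0.00703). Over the list, 3 of 10 genes were higher in SMCs, 1 was higher in pericytes and 6 did not pass. The count higher in SMCs was 1 without pericyte replicate 1 or SMC replicate 3, and the count higher in pericytes was 2 without pericyte replicate 2 or SMC replicate 4.

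Promoters of the members were read for the letters GAGGAA on either strand, the core that PU.1 binds. RefSeq entries were matched for 6 members (Mrc1, Mertk, Fcgr1, Cd163, Lyz2 and Cd68; GRCm38.p6), and the 250 bases before the start were used. GAGGAA was found in 3 of the 6 and in 23.3% of all 32851 promoters of the same length. It was found 3 times before Mrc1, once before Fcgr1 and once before Cd68, and not in the windows of Mertk, Cd163 and Lyz2. Other letters searched were TTNCNNAA (4 of 6, and 36.8% of all promoters), CACGTG (0 of 6, and 6.02%) and TGANTCA (1 of 6, and 6.75%), and matches that overlap were each counted. The windows of Mrc1 and Fcgr1, higher in SMCs, and of Cd68, which did not pass, are shown 5′ to 3′ on the gene's strand, with GAGGAA or its reverse complement in capitals. In GRCm38.p6 they lie at chr2:14229164-14229413 (plus strand), chr3:96293970-96294219 (minus strand) and chr11:69666171-69666420 (minus strand).
Mrc1: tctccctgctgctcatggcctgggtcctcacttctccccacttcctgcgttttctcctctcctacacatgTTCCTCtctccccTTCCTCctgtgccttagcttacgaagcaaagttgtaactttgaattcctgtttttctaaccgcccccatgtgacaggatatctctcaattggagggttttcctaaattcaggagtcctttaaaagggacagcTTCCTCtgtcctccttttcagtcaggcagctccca
Fcgr1: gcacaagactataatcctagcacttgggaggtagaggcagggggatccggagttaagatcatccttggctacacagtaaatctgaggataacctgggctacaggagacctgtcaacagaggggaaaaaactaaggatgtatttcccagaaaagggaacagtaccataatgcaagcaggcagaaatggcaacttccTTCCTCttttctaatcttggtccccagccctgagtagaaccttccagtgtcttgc
Cd68: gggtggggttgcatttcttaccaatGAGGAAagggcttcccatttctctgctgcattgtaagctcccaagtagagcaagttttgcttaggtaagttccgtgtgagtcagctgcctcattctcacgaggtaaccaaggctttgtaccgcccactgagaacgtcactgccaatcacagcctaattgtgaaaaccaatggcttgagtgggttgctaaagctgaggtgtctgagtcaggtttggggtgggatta
A match is a description of the letters only.

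The patterns over the 8 libraries were compared between genes by the mean absolute difference of log2 values, each gene centred on its own mean, among the 13612 genes whose mean reached 1 FPKM. The genes nearest to Csf1r were Ppm1l and Mfn2 (0.19 and 0.21 log2 units). The nearest to Mrc1 was Pparg (0.12), to Mertk Ptprk (0.12), to Cd163 Ccdc66 (0.09) and to Fcgr1 Gda (0.12). The nearest to Emr1 was Clec4a3 (0.17), to Cd68 Bst2 (0.05), to Cd14 C920021L13Rik (0.12) and to Lyz2 Rtcd1 (0.10). Among the members, Mrc1 and Mertk were the closest pair (0.27 log2 units), with Mertk at rank 51 among the neighbours of Mrc1. Emr1 and Fcgr1 followed closely in value (0.28 log2 units, with Fcgr1 at rank 231 of the neighbours of Emr1). Lyz2 and Csf1r were the farthest pair (1.15 log2 units). All distances come from the same 8 libraries and describe those libraries only.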

How the data were processed

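RNAseq libraries of 4 pericyte and 4 SMC samples were analysed. The authors checked read quality with FastQC, used Bowtie2 and TopHat with an Ensembl annotation for alignment (mouse, NCBI Build 37), and deposited FPKM per gene and library. The program that computed FPKM is not given in the sources used here. FPKM hold no read counts, so the depth is unknown.

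The scale of all tests was log2(FPKM + 1), and limma 3.58.1 (R 4.3.3) was fitted to all 8 libraries, with Benjamini-Hochberg adjustment over 27414 genes, and differences are SMCs minus pericytes. Tested on simulated data of this comparison over 27414 genes, limma called 58% of 200 genes changed by 2 log2 units, 13.5% of 200 changed by 1, and 7 of 27014 unchanged genes. The changed genes were drawn from those with a mean above 2 on the log2 scale, which Cd163 and Fcgr1 do not reach. Far fewer genes were changed than the 5977 called in the data, so these shares need not hold for the members. P-values measure the spread between these libraries. Each library pools several sorts, the methods call the libraries biological replicates, and nothing assigns animals to them.

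The members and lists were chosen with earlier results of these data known. Genes named beyond the members were their ligands, co-receptors, signalling chains and paralogues, a few lineage genes (Spi1, Ptprc, Itgam, Tyrobp, Cd52, C1qa, C1qb and C1qc), list genes at 0 in a whole group, up to 4 genes per list with the largest difference, and the nearest genes by pattern. Ccr2, Clec10a, Ctss, Elmo1, Acta2, Pdgfrb and Hmgxb3 were named after their values were seen. Some genes that this rule names are not reported here. Each of these changes was tried alone: 0.1 as the pseudocount, only genes at 1 FPKM or more in 4 libraries, TPM, quantile or median-ratio scaling, an intensity trend, a block for the replicate number, a term for replicates 1 and 2 against 3 and 4, and leaving out each library. Chosen after seeing the data were Lyz1 and Lyz2 summed, and replicates 1 and 2 only or 3 and 4 only. Gene positions come from GENCODE M1, and the promoter windows are positions in GRCm38.p6. Python 3.11.15, numpy 2.4.6, pandas 2.3.3 and matplotlib 3.10.9 were used.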

Additional observations from a re-analysis of the deposited data

Results flagged for a closer look

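Mrc1 in pericyte replicate 4 stood apart from the other pericyte libraries, at 2.25 FPKM against 0.561 to 0.647 FPKM. The gap to its nearest neighbour was 0.927 of the group's range in log2 values, above Dixon's 95% critical value for 4 samples. It was 1 of 18 groups examined, where chance gives about 1 in 20. Without this library the difference of Mrc1 was larger, at 2.38 log2 units (limma q = 0.00265), and Emr1, Mertk and Cd68 were also highest in pericytes in replicate 4.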

How the results depend on the processing

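All differences here are SMCs minus pericytes. Mrc1 and Cd163 kept their direction and their limma call under the 16 alternatives that changed the scaling, filter, pseudocount or model or left out 1 library. The count of members higher in SMCs was 5, 4 with a pseudocount of 0.1, 6 with TPM scaling and 5 in the other fits that kept all libraries. It was between 2 and 4 when a library was left out, with 3 without pericyte replicate 1 or 3 or SMC replicate 2 or 4, and 2 without SMC replicate 3. The count past 2 log2 units was 2 with a pseudocount of 0.1 and ranged from 0 (without SMC replicate 4) to 1 with a library left out. Emr1 lost its call with a pseudocount of 0.1 (1.02, limma q = 0.0580), and with a library left out its difference was 0.76 to 1.15. With a pseudocount of 0.1, Mrc1 was at 2.95, Mertk at 2.09, Cd163 at 1.70 and Fcgr1 at 1.56. With a library left out, Csf1r was at 0.25 to 1.123, Cd14 at 0.32 to 0.57, Mertk at 1.43 to 1.93, Fcgr1 at 0.80 to 1.10, Cd68 at -0.33 to 0.047 (reversed without pericyte replicate 2, 0.023, or 4) and Lyz2 at -0.14 to 0.30 (reversed without pericyte replicate 3, or SMC replicate 4, -0.011). Lyz2 was at 0.46 with quantile scaling, which shifted the median of the genes whose mean reached 1 FPKM by 0.069, and at 0.32 with TPM scaling, without a call in either. TPM scaling reversed Cd68 (0.13) and brought Cd14 past the threshold (0.74). It shifted the median of the 13612 genes whose mean reached 1 FPKM by 0.21, so that relative to this shift Cd68 kept its sign and most of the gain of Cd14 was the shift, and 63.8% of all calls were then higher in SMCs, against 51.2%. With replicates 1 and 2 only, calls were lost by Mrc1 (2.13), Cd163 (0.79), Emr1 (1.19), Mertk (1.29) and Fcgr1 (0.80), and Lyz2 was at -0.13. With replicates 3 and 4 only, Emr1 (0.65) and Mertk (2.12) lost theirs. Those fits have 2 libraries a group. The cause of the other changes was not tested.

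Pericyte and SMC libraries share replicate numbers, and nothing states that a number marks shared animals. Deviations of same-numbered libraries from their group means correlated across genes at 0.327 on average (0.0794 to 0.474 over 4 pairs). In this check 5 of 8 libraries were closest to their own number. Same-numbered libraries were thus alike to some degree, and the main fit did not use the number. Whether they share animals or sorts is not given in the sources used here. With the replicate block, 5 members were higher in SMCs, as without it, with 2.12 for Mrc1 (limma q = 0.00506) and 0.76 for Csf1r (limma q = 0.162). With the block, the count higher in pericytes among the 8 genes of CSF1R ligands and related receptors was 5, against 2 without it. Counts in related lists stayed within 1.5 times in 302 of 352 cases, and those past it include 1 gene higher in SMCs in place of 0 among the NADPH oxidase and phagocyte integrin genes (TPM, quantile and median-ratio scaling among others) and 1 higher in pericytes in place of 0 among the activation genes (with the block, among others). The number of reads behind the low values of Mrc1, Cd163 and Fcgr1 in pericytes is unknown.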
